A study of Mus musculus with 6 samples.

Results

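The fatty acid desaturases Fads1, Fads2, Fads3, Scd1, and Scd2 and the elongases Elovl1, Elovl2, Elovl5, Elovl6, and Elovl7 were compared between WT and Selenbp1-KO mouse kidneys. Every non-control probe whose gene name is one of these 10 genes was taken, which gave 22 of the 56605 probes on the array, 13 of desaturases and 9 of elongases. Left kidneys of 3 WT and 3 Selenbp1-KO males (strain C57BL/6J, age 8 weeks) were taken after 20 h without food, and the Cy3-labeled RNA of each mouse was hybridized to a one-color Agilent array of its own. All 6 mice were fasted, so no fed level was measured. Selenbp1-KO mice lack functional Selenbp1, which encodes a selenium-binding protein. The WT males came from a commercial breeder, so source and genotype cannot be told apart.

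Desaturases put double bonds into fatty acids, and elongases add carbon units to the chain. Fads2 introduces the first and usually limiting double bond on the way from linoleic acid to arachidonic acid, Elovl5 lengthens its product, and Fads1 introduces the last double bond before arachidonic acid, the precursor of prostaglandins and leukotrienes. Scd enzymes make oleic and palmitoleic acid from saturated chains and are strongly expressed in fat tissue, while Elovl1, Elovl6, and Elovl7 act mainly on saturated and monounsaturated chains. The study set out to find kidney genes that accompany altered levels of arachidonic acid derivatives in Selenbp1-KO mice, and these enzymes stand upstream of those derivatives.

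Signals are given as log2 of the processed intensity relative to the 75th percentile of the non-control spots of the same array, which is 0 on this scale. The 75th percentile lay between 477 and 751 intensity units, and 51.8 to 55.5% of the spots were well above background. A probe was called at an unadjusted limma p under 0.05, the threshold of the study's methods. Selenbp1 itself was at 7.07, 7.02, and 7.02 in WT replicates 2, 3, and 4, and at 4.13, 3.98, and 4.10 in Selenbp1-KO replicates 1, 2, and 3, as the labels say. Markers of proximal tubule and podocytes were well above background on all 6 arrays and none of them was called. Genes of 3 other sources differed between the same arrays at the unadjusted threshold. Called higher in Selenbp1-KO were 4 of 6 macrophage markers, 3 of 3 red blood cell genes, and 3 of 5 connective tissue and mesothelium markers. Over all genes read by their brightest probe, 8.00% were called in either direction. The lowest adjusted p in each of these lists was 0.279 by limma. The part of these genes in the results below was not tested. In whole kidney, a change in the share of a cell type and a change of RNA per cell cannot be told apart. The probes read several places along a gene, and probes of 1 gene did not always read the same difference. The 4 sequences shown here belong to the dimmest probes of Fads2 and Fads1 that were above background on at least 1 array, because the single call among the members fell on one of them. For each gene, 1 of the 2 probes carries a RefSeq transcript accession and the other an accession of a cDNA clone. Each is a 60-base probe printed 5′ to 3′, and capitals mark the stop triplets TAA, TAG, and TGA in any of the 3 forward reading frames.
Fads2 NM_019699 position 595: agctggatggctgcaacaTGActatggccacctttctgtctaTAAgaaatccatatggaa
Fads2 AK031337 position 2899: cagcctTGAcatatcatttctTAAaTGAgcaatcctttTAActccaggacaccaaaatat
Fads1 NM_146094 position 266: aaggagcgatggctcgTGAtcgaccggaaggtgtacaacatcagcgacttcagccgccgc
Fads1 AK080706 position 1252: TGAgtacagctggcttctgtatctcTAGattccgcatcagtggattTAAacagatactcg
The Fads2 probe of AK031337 (chr19:10161035-10161094 of mm9, minus strand) lies between the NM_019699 probe at position 595 (chr19:10163229-10163288) and the 3 probes nearer the 3′ end. Whether it is exonic or intronic was not determined, because no exon annotation of mm9 was used here. It holds a stop triplet in 3 of 3 forward frames, while the NM_019699 probe at position 595 holds them in 1. Over all 56605 probes, 20.3% hold a stop triplet in all 3 frames, and among the members 8 of 22 do, the brightest Fads2 probe included. GC content ran from 35 to 60% over the 22 probes, and AK031337 shares the lowest value with the NM_134255 probe of Elovl5 and the probes of Elovl2, Elovl6, and Elovl7.

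Across the 22 probes, 1 was called, lower in Selenbp1-KO, and none was called higher. Over all 56097 probes tested, 7.98% were called, 1.51% lower and 6.47% higher, and a count of 1 among 22 is too small to be set apart from these shares. Without WT replicate 4 the members' count was 3, and without WT replicate 3, Selenbp1-KO replicate 2, or Selenbp1-KO replicate 3 it was 2. The further calls without WT replicate 4 were the Ensembl transcript probes of Elovl1 and Elovl5, above background on no array. Their adjusted p was then 0.049 by limma. The count over all probes, 4479, moved more, to 17585 without WT replicate 4 and to 2024, 2627, and 2808 without WT replicate 2, WT replicate 3, and Selenbp1-KO replicate 2. At an adjusted p under 0.05, limma called no member and 0.00357% of all probes. Groups did not overlap for 2 of the 22 probes, against 13.3% of all probes. The median difference, Selenbp1-KO minus WT, was −0.02 over the members and 0.11 over all probes tested. Among all probes well above background on all 6 arrays the median was 0.01, and among those on no array it was 0.38. Of the members, 16 were well above background on all 6 arrays, 3 on some, and 3 on none.

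Reading each gene by its brightest probe, 0 of 10 genes were called, against 8.00% of 37028 genes. The difference was negative for 6 genes and positive for 4, and the lowest adjusted p was 0.503 by limma. For the 9 genes other than Scd1, the 95% intervals of the difference all lay within −0.55 and 0.36, or 0.684-fold and 1.29-fold. Changes beyond these bounds were therefore outside the intervals, while smaller changes could not be told from none with 3 mice per genotype.

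**Figure D1:**
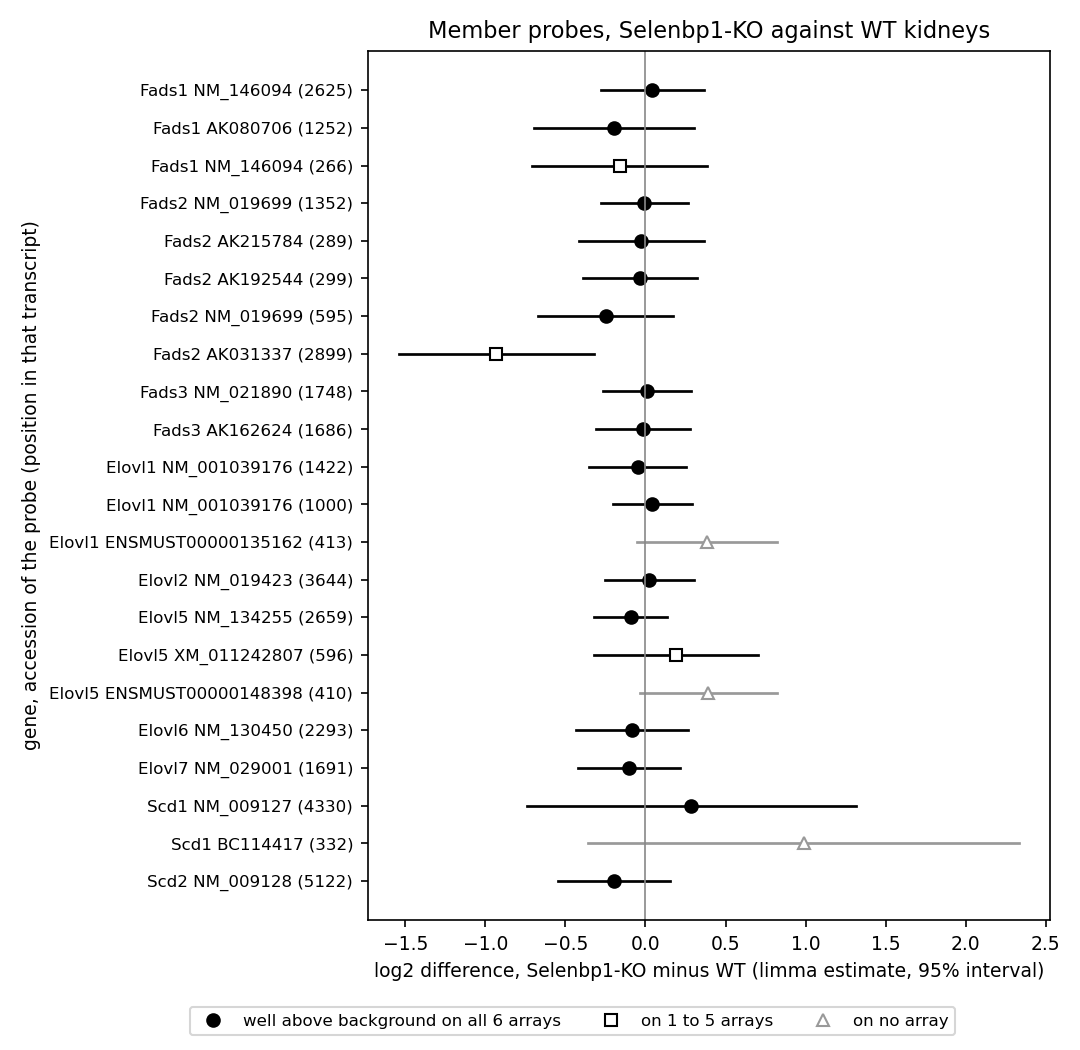
Difference between Selenbp1-KO and WT kidneys (x axis, log2) with its 95% limma interval for each of the 22 probes (y axis, with accession and position), marked by the number of arrays on which the probe was well above background. The interval of 1 probe, Fads2 AK031337, lies entirely below 0, and those of the other 21 include 0.

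Fads2, the delta-6 desaturase, was read by 5 probes, of which 4 did not pass the test. The brightest, NM_019699 at position 1352 (chr19:10138750-10139180 of mm9), was at 1.20, 1.15, and 0.98 in WT replicates 2, 3, and 4 and at 1.04, 1.08, and 1.19 in Selenbp1-KO replicates 1, 2, and 3. These values overlap fully, and the difference was −0.01 with a 95% interval of −0.28 to 0.26. The probe of AK215784 was at 0.60, 0.63, and 0.22 in WT and at 0.52, 0.27, and 0.59 in Selenbp1-KO. The probe of AK192544 was at 0.12, 0.18, and −0.01 in WT and at 0.16, −0.19, and 0.22 in Selenbp1-KO. For both, the genotypes overlapped, with differences of −0.02 and −0.03.

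The probe of AK031337 was at −3.61, −4.37, and −3.82 in WT and at −5.06, −4.51, and −5.03 in Selenbp1-KO. All 3 WT values were above all 3 Selenbp1-KO values, but WT replicate 3 and Selenbp1-KO replicate 2 were 0.14 apart on this scale, less than the range within either genotype. The difference was −0.93 ± 0.25 (standard error), with an unadjusted limma p of 0.00942 and an adjusted p of 0.279. The probe was well above background on the 3 WT arrays and on no Selenbp1-KO array. Its level in Selenbp1-KO was therefore not measured. With each Selenbp1-KO array set to no less than its lowest signal well above background, the mean on this scale was 1.77-fold higher in WT. That fold is no strict bound. Selenbp1-KO replicate 2, at −4.51, exceeded its array's lowest such signal of −4.63, yet the probe was not well above background there. The fold also leaves out the spread between mice and the choice of background correction. Its processed intensities were 58.1, 36.4, and 36.8 in WT and 17.0, 20.9, and 17.9 in Selenbp1-KO. Before background subtraction, the mean pixel signal of the spot was 145.7, 123.0, and 122.9 in WT and 108.0, 110.7, and 105.3 in Selenbp1-KO, over a median local background of 85 to 96. The whole difference thus sits in a signal not far above the local background. Normexp background correction of the same spots was run with an offset of 50 intensity units on every spot. The log2 values were then −2.65, −3.02, and −2.56 in WT and −2.89, −2.54, and −2.78 in Selenbp1-KO. The genotypes overlapped, the difference was 0.00 (adjusted p = 0.988 by limma), and the call was lost. This offset is of the order of the probe's processed intensities and draws dim values together. The lost call therefore cannot tell an absent difference from a flattened one. Under the other 16 alternatives the probe was called, with differences from −1.15 to −0.77.

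The NM_019699 probe at position 595 reads the nearest place upstream of AK031337 on the array. It was at −2.04, −2.12, and −2.32 in WT and at −2.29, −2.73, and −2.21 in Selenbp1-KO. The genotypes overlapped, and the difference was −0.25 ± 0.17 (standard error, adjusted p = 0.476 by limma). The next Fads2 probe downstream, NM_019699 at position 1352, lies farther away (chr19:10138750-10139180, against chr19:10161035-10161094 for AK031337). Neither of these 2 probes passed the test.

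**Figure D2:**
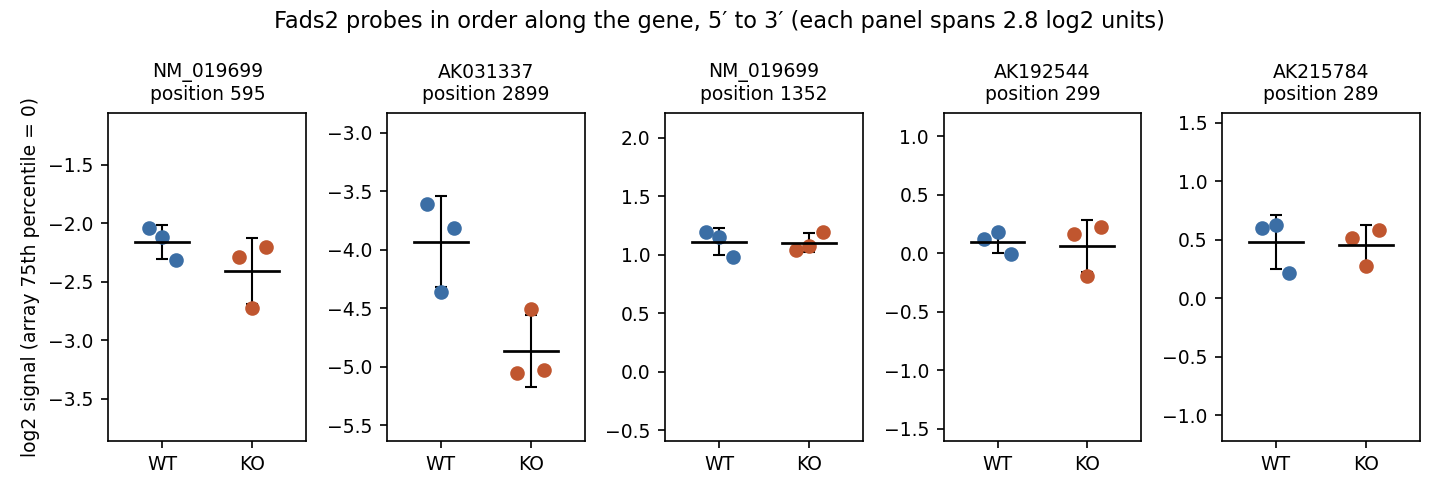
Log2 signal of the 5 Fads2 probes (y axis, 75th percentile of the array at 0) in WT and Selenbp1-KO kidneys (x axis), in order along the gene, with the mean (line) and SD (bar) of 3 arrays. The genotypes are separate for AK031337 and overlap for the other 4 probes.

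Because scaling by 1 number per array cancels in the ratio of a pair of probes on the same array, each other probe of a gene was also set against its brightest probe. The 6 genes with more than 1 probe gave 12 such pairs. Groups did not overlap for 4 of them, against 13.5% of such pairs over all genes. With 3 against 3 arrays the exact permutation test (two-sided) cannot go below p = 0.10, which these 4 pairs reached, and their adjusted p over the 12 pairs was 0.30. For AK031337 against the brightest Fads2 probe, the log2 ratio was −4.81, −5.52, and −4.80 in WT and −6.10, −5.59, and −6.22 in Selenbp1-KO. The Selenbp1-KO ratios rest on signals not well above background, so the difference of −0.93 is no measured size. Under normexp correction with its offset it was 0.05 (exact permutation p = 1.0).

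For position 595 against the brightest Fads2 probe, the log2 ratio was −3.24, −3.28, and −3.30 in WT and −3.33, −3.80, and −3.40 in Selenbp1-KO. The 3 WT ratios lay within 0.06 of each other, and every Selenbp1-KO ratio was lower, by 0.24 in the mean. The lowest ratio was that of Selenbp1-KO replicate 2. Under normexp correction, whose offset draws dim values together, the difference was −0.05 (exact permutation p = 0.50). Of the 6 pairs in which both probes were well above background on all 6 arrays, this was the 1 without overlap, against 9.22% of such pairs over all genes. The differences of these 6 pairs ran from −0.24 to 0.09. The remaining 2 pairs without overlap involve Ensembl transcripts of Elovl1 and Elovl5 that were above background on no array.

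Fads1, the delta-5 desaturase, was read by 3 probes on the plus strand of chromosome 19, and none was called. The brightest, NM_146094 at position 2625, was at 0.55, 0.66, and 0.35 in WT and at 0.68, 0.43, and 0.58 in Selenbp1-KO. The genotypes overlapped, with a difference of 0.04 and a 95% interval of −0.28 to 0.36. The 2 dim Fads1 probes printed above leaned the other way. AK080706 was at −3.57, −3.82, and −3.26 in WT and at −3.89, −3.43, and −3.92 in Selenbp1-KO, a difference of −0.20 (95% interval −0.70 to 0.30). NM_146094 at position 266 was at −4.49, −4.86, and −4.16 in WT and at −4.83, −4.36, and −4.80 in Selenbp1-KO, a difference of −0.16 (95% interval −0.71 to 0.39). It was well above background on the 3 WT arrays and on 1 Selenbp1-KO array. Both dim probes were highest in WT replicate 4 and overlapped between the genotypes. Both turned sign under normexp correction, to 0.05 and 0.21, but its offset weighs most on such dim probes.

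Fads3, the third gene of this cluster, has been linked to the desaturation of sphingoid bases. Its NM_021890 probe was at 4.29, 4.14, and 4.35 in WT and at 4.29, 4.16, and 4.36 in Selenbp1-KO, so the 2 sets of values nearly coincide. The difference was 0.01 (95% interval −0.27 to 0.29), and that of its AK162624 probe was −0.01 (95% interval −0.31 to 0.28). The 10 Fads probes lie within 137.949 kb of chromosome 19 of mm9 (chr19:10132641-10270589), with Fads2 on the minus strand and Fads1 and Fads3 on the plus strand. Apart from AK031337, none of the probes of this cluster was called.

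Elovl5 and Elovl2 lengthen polyunsaturated chains between and after the Fads steps. The Elovl5 NM_134255 probe was at 2.04, 1.99, and 2.06 in WT and at 1.91, 1.98, and 1.92 in Selenbp1-KO. All 3 Selenbp1-KO values were lower than all 3 WT values, by a small margin. The difference of −0.09 (95% interval −0.32 to 0.13) was not called by limma (adjusted p = 0.650). Student's test, which the study's methods name for comparisons in general and not for the arrays, uses the spread of this probe alone and called it at an unadjusted threshold (adjusted p = 0.351). The fold was 0.938. Elovl2 was at 0.90, 0.97, and 0.97 in WT and at 0.96, 0.83, and 1.12 in Selenbp1-KO, a difference of 0.02 (95% interval −0.25 to 0.30). Its WT values were close together, and the Selenbp1-KO values lay on both sides of them.

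The other Elovl5 probes were near background. XM_011242807 was well above background on 2 WT arrays and 1 Selenbp1-KO array, with a difference of 0.19 (95% interval −0.32 to 0.71). The probe of ENSMUST00000148398 was above background on none, with a difference of 0.39. A probe of ENSMUST00000135162 for Elovl1 was likewise above background on none, with a difference of 0.38. Both values are close to the median of 0.38 over all probes above background on no array, and no level can be read from them.

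Elovl1, Elovl6, and Elovl7 serve saturated and monounsaturated chains, and none passed the test. Elovl1, which makes very long chains, was at 5.48, 5.45, and 5.70 in WT and at 5.55, 5.36, and 5.58 in Selenbp1-KO on its brightest probe (NM_001039176 at position 1422). The difference was −0.05 (95% interval −0.35 to 0.26), and the probe at position 1000 of the same transcript gave 0.04 (95% interval −0.20 to 0.29). Both genotypes overlapped on both probes. Elovl6, which extends palmitic to stearic acid, was at 0.999, 0.811, and 0.808 in WT and at 0.88, 0.94, and 0.55 in Selenbp1-KO, a difference of −0.08 (95% interval −0.43 to 0.26). Its lowest value was that of Selenbp1-KO replicate 3, the array with the lowest Scd1 as well. Elovl7 was at 3.15, 3.07, and 3.37 in WT and at 3.10, 2.96, and 3.22 in Selenbp1-KO, a difference of −0.10 (95% interval −0.42 to 0.22).

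Scd1, the main stearoyl-CoA desaturase of fat and liver, varied more between Selenbp1-KO mice than any other member read by its brightest probe. Its NM_009127 probe (chr19:44469387-44469446 of mm9) was at 2.99, 3.18, and 2.96 in WT and at 3.73, 3.92, and 2.34 in Selenbp1-KO. Selenbp1-KO replicates 1 and 2 were above every WT value, and Selenbp1-KO replicate 3 was below every WT value. The range was 0.23 in WT and 1.59 in Selenbp1-KO, and the difference of 0.29 (95% interval −0.74 to 1.31, adjusted p = 0.771 by limma) was not called. Single arrays decided it. Without Selenbp1-KO replicate 3 the difference was 0.79 and called (adjusted p = 0.291 by limma), and without Selenbp1-KO replicate 2 it was −0.01. A second Scd1 probe (BC114417), whose coordinates are on the opposite strand, was well above background on no array.

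Scd2, whose probe is also on chromosome 19 (chr19:44381024-44381083 of mm9), did not share this pattern. It was at 2.59, 2.51, and 2.52 in WT and at 2.14, 2.60, and 2.28 in Selenbp1-KO, a difference of −0.20 (95% interval −0.55 to 0.15, adjusted p = 0.503 by limma). Selenbp1-KO replicate 1 was high in Scd1 and low in Scd2. Without Selenbp1-KO replicate 2, the Scd2 difference was −0.33 and called (adjusted p = 0.523 by limma).

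Fat tissue markers also varied between the arrays. All 7 of the markers were well above background on all 6 arrays and higher in the mean of Selenbp1-KO, but none was called and none was separated between genotypes. Their summed level was 4.85, 5.64, and 3.71 in WT and 5.74, 6.99, and 4.50 in Selenbp1-KO. Adipoq, the adiponectin gene of adipocytes, was at 0.55, 1.05, and −0.62 in WT and at 1.66, 2.70, and 0.19 in Selenbp1-KO. The brown fat gene Ucp1 was at 0.39, 0.02, and −1.32 in WT and at 1.29, 2.06, and −3.42 in Selenbp1-KO. The sum was carried mostly by Cfd, the adipsin gene, at 4.27, 5.21, and 3.21 in WT and at 5.21, 6.53, and 4.09 in Selenbp1-KO. Within each genotype, the order of the 3 arrays by this sum was the order by Scd1, but not by every marker. Lep was higher in Selenbp1-KO replicate 1 than in replicate 2 (−1.89 against −1.96), and Plin1 and Ucp1 were higher in WT replicate 2 than in WT replicate 3. Across genotypes the order by the sum differed too, since Scd1 was lower in Selenbp1-KO replicate 3 than in WT replicate 4 while the sum was higher. The part of fat tissue in the Scd1 values was not tested.

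**Figure D3:**
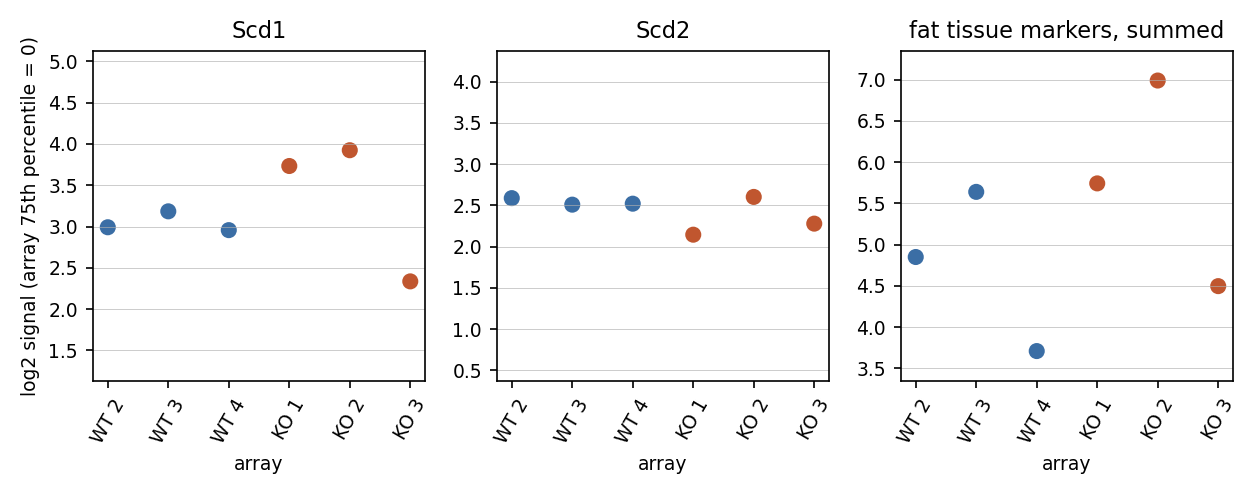
Log2 signal (y axis, 75th percentile of the array at 0) of Scd1, of Scd2, and of the summed fat tissue markers on each of the 6 arrays (x axis, WT in blue and Selenbp1-KO in orange). Scd1 spreads from 2.34 to 3.92 among the Selenbp1-KO arrays and from 2.96 to 3.18 among the WT arrays, and Selenbp1-KO replicate 2 is highest both in Scd1 and in the fat markers.

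The enzymes and regulators that work with the members were read in 6 lists of 38 genes, each by its brightest probe. Of these, 1 was called, against 8.00% of all genes, and the count ran from 0 (without WT replicate 2, WT replicate 3, or Selenbp1-KO replicate 1) to 3 (without WT replicate 4 or Selenbp1-KO replicate 3) when single arrays were left out. A difference was positive for 18 genes and negative for 20. The median was −0.01, beside 0.13 over all genes and 0.01 over all probes well above background on all 6 arrays. Of the 38 genes, 3 were well above background on no array. Groups did not overlap for 7 of the 38, or 18.4%, against 14.1% of all genes. The called gene was Cyb5r2, a cytochrome b5 reductase, with a difference of 0.46 (adjusted p = 0.279 by limma), but its probe was well above background on no array. The electron donors that serve desaturases in kidney at a readable level, such as Cyb5a (0.17, 95% interval −0.17 to 0.51) and Cyb5r3 (0.03, 95% interval −0.19 to 0.25), were not called.

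In each of the other lists no gene was called. Among further desaturases and elongases, the largest difference was that of Elovl3 (0.38), above background on no array, and Scd3 and Scd4 gave −0.04 and 0.24. Among the partners of the elongation cycle, Hacd4, a hydroxyacyl-CoA dehydratase, was at −0.09, −0.54, and 0.03 in WT and at −0.77, −0.16, and −0.98 in Selenbp1-KO, a difference of −0.44 (95% interval −1.07 to 0.19). The genotypes overlapped. Hsd17b12 and Tecr, the reductases of the same cycle, gave 0.04 and 0.07. Among acyl-CoA synthetases, which activate fatty acids, Acsl4, which prefers arachidonic acid, gave −0.29 (95% interval −0.70 to 0.11). Among the peroxisomal genes that shorten chains to docosahexaenoic acid, Acaa1a gave −0.09 (95% interval −0.32 to 0.14).

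Among the transcriptional regulators, Ppara, a fatty acid sensor that activates Fads, Scd, and peroxisomal genes, had the largest difference. It was at 4.44, 4.51, and 4.46 in WT and at 4.17, 3.93, and 4.39 in Selenbp1-KO. All Selenbp1-KO values were lower than all WT values, and the difference of −0.31 (95% interval −0.65 to 0.04, adjusted p = 0.279 by limma) did not pass the threshold. It passed the unadjusted threshold under 6 of the 17 alternatives. Over all settings, called or not, the Ppara difference ran from −0.42 to −0.19. Nr1h3 went the other way, at 3.03, 3.00, and 3.14 in WT and 3.43, 3.17, and 3.33 in Selenbp1-KO. The genotypes did not overlap, and the difference of 0.26 (95% interval −0.02 to 0.53, adjusted p = 0.279 by limma) was not called. Under 6 of the 17 alternatives it was called too. Rxra, at −0.14 (95% interval −0.36 to 0.08), did not overlap either and was called under 3. Srebf1, which drives Scd1 and elongase genes in the fed state, gave −0.06 (95% interval −0.37 to 0.25).

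**Figure D4:**
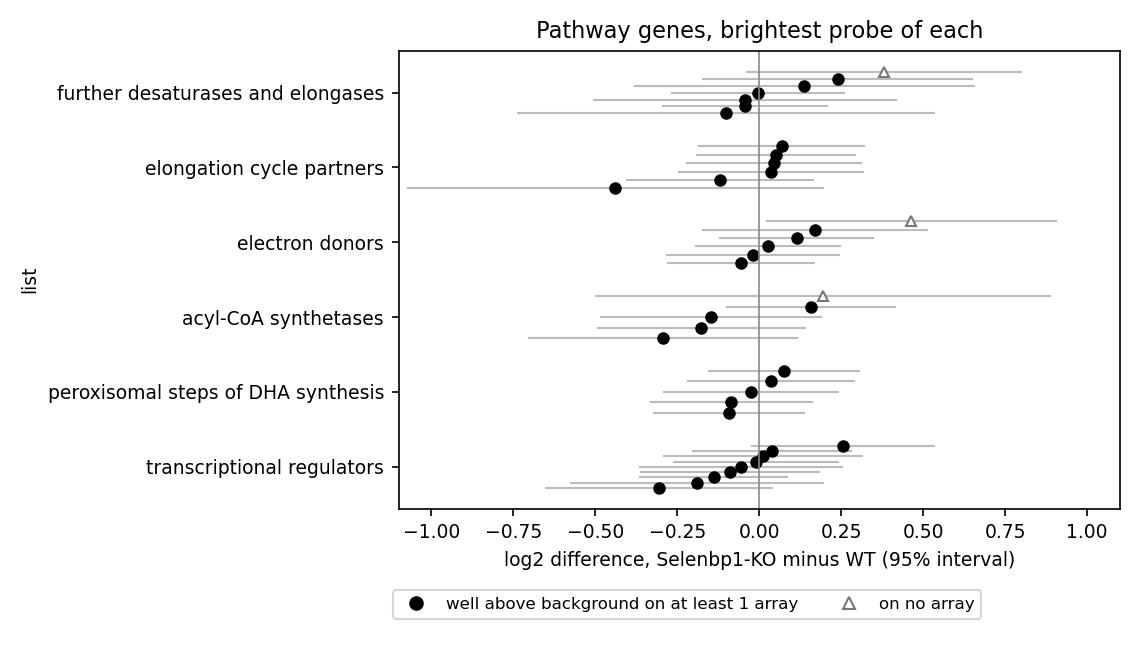
Difference between Selenbp1-KO and WT kidneys (x axis, log2, with 95% limma intervals) for the 38 pathway genes in their 6 lists (y axis), each read by its brightest probe. The interval of 1 gene, Cyb5r2 among the electron donors, excludes 0, and its open triangle marks a probe well above background on no array.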

How the data were processed

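The authors deposited Agilent Feature Extraction output for each of the 6 arrays. The submitters' notes name version 9.5.1.1 and a different array design, and the file headers name version 10.7.1.1. Per the file headers, intensities are linear, background-subtracted, and not normalized between arrays, with a detection p-value per spot. The authors also deposited linear intensities that appear quantile normalized, used here as an alternative. Log2 processed signals were scaled to the 75th percentile of each array, and flagged spots were left out. Probes detected (p under 0.05) on 1 or more arrays were compared with limma (version 3.58.1, R version 4.3.3, two-sided, Benjamini–Hochberg adjustment over 56097 probes), which was tested on simulated data. The number of arrays, 3 per genotype, limits the precision. Nothing states that samples share a litter or day. The fold against background divides the brighter genotype's mean by a floor: on each array of the dimmer genotype, the larger of the probe's signal and the lowest signal well above background. It is no strict bound, because a probe can exceed that lowest signal and still not be well above background. Gene names follow RefSeq (GRCm38.p6), whose table held the accession of 14 of the 22 probes, and coordinates are those of the files (mm9). The summed level of a list is the log2 of its summed linear values. Members and lists were chosen with earlier results of these data known. All 10 members, the called gene and the largest difference of each pathway list, and defining markers were named, and further pathway genes after their values were seen. All 6 arrays lie on 1 slide, WT replicates 2 and 3 in row 1 and the others in row 2. The alternative called the methods' t-test is the test that the study names for comparisons in general, while limma is its test for the arrays.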

Additional observations from a re-analysis of the deposited data

How the results depend on the processing

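The count of called members was 1, with 3 under median scaling, 3 with limma's trend and robust options, 2 with the methods' t-test, and 1 to 3 when single arrays were left out (3 without WT replicate 4). For all probes the count was 4479, with 14616 under median scaling, 2841 when only probes well above background were kept, 7536 with trend and robust options, and 2024 (without WT replicate 2) to 17585 (without WT replicate 4) when single arrays were left out. For the pathway genes it was 1, with 2 under normexp, 5 under quantile normalization, 2 under median scaling, 5 with the authors' normalized values, 2 with the background filter, 3 with trend and robust options, 4 with the methods' t-test, 0 with the slide row as a block, and 0 to 3 when single arrays were left out. With the replicate number as a block, the counts were 18430 for all probes, 3 for members, and 2 for pathway genes. The members added here, under median scaling, and without WT replicate 4 were the Ensembl probes of Elovl1 and Elovl5, above background on no array. Only the numbers 2 and 3 occur in both genotypes, so the difference under this block rests on replicates 2 and 3 of each genotype. WT replicate 4 and Selenbp1-KO replicate 1 do not enter it. The deviations of same-numbered arrays correlated at 0.17 and 0.19, and those of differently numbered arrays from −0.33 to 0.19. Nothing says that the numbers pair mice. Under this block, small differences turned sign to −0.10 for Fads1 position 2625, 0.019 for Fads1 AK080706, 0.10 for Fads1 position 266, 0.020 for Fads3 AK162624, 0.0044 for Elovl1 position 1422, and −0.00043 for Elovl1 position 1000.

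Under normexp with its offset of 50, which weighs most on dim probes, the sign turned to 0.054 for Fads1 AK080706, 0.21 for Fads1 position 266, 0.0041 for Fads2 AK031337, and −0.039 for Fads3 NM_021890. The ratios to the brightest probe turned to 0.029, 0.18, and 0.047 for the first 3 of these. Fads3 NM_021890 was also at −0.027 under quantile normalization, −0.0068 under median scaling, −0.018 with the authors' values, and −0.082 with the slide row, and the ratio of the other Fads3 probe to it was 0.011 under quantile normalization and 0.0043 with the authors' values. The slide row as a block rests on WT replicate 4 alone. It gave 0.12 for Fads2 position 1352, 0.24 for AK215784, and 0.073 for AK192544. When single arrays were left out, differences crossed 0 for Fads1 position 2625 (−0.044 to 0.11), Fads1 position 266 (−0.34 to 0.012), Fads2 position 1352 (−0.072 to 0.037), AK215784 (−0.16 to 0.068), AK192544 (−0.11 to 0.093), Fads3 NM_021890 (−0.051 to 0.065), Fads3 AK162624 (−0.095 to 0.056), Elovl1 position 1422 (−0.096 to 0.032), Elovl2 (−0.051 to 0.097), Elovl5 XM_011242807 (−0.019 to 0.35), Elovl6 (−0.16 to 0.035), and Scd1 (−0.0095 to 0.79). None of these was called with all 6 arrays except Fads2 AK031337, which kept its call under the alternatives other than normexp. The causes were not tested. With 3 arrays per genotype, and with signals near background for 6 of the 22 probes, smaller differences could not be resolved.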
